A study of Mus musculus with 4 samples.

Results

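The 10 genes described here encode the proteins that bring glucose into a mouse cell, carry out steps of glycolysis and export lactate. They were chosen by name: the glucose transporter genes Slc2a1 and Slc2a3, the enzyme genes Hk1, Hk2, Pfkl, Aldoa, Pgk1, Pkm and Ldha, and the lactate transporter gene Slc16a3. All 10 were found among the 43629 gene identifiers counted, each with reads in every library, and all 10 passed the filter on low counts that left 17022 genes for testing. Poly(A) RNA was sequenced from 4 libraries of blastocyst-derived mouse embryonic stem cells (129/Ola), kept in medium with serum and LIF. The knockout libraries, KO1 and KO2, come from cells in which paired CRISPR/Cas9 cuts deleted part of Drosha, which encodes the nuclear RNase that starts microRNA maturation. KO1 carries a deletion of the Pro-rich region and KO2 one of the R/S-rich region, and both were taken at passage 7. The wild-type libraries, WT1 and WT2, come from the E14 line at passage 33 and passage 42, and their labels call them re-used. Genotype, passage and the origin of the libraries cannot be told apart. Whether each knockout is a single clone, and what the mark d5 in the knockout titles stands for, is not given in the labels.

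Glycolysis turns glucose into pyruvate in the cytosol. SLC2A (GLUT) transporters admit glucose, hexokinases trap it as a phosphate, phosphofructokinase commits it to the pathway, and lactate dehydrogenase and the monocarboxylate transporters dispose of the pyruvate as lactate. Pluripotent stem cells are known for high glycolytic flux even when oxygen is present. MicroRNAs of the miR-290 family have been linked, in mouse embryonic stem cells, to glycolytic genes through the repressor MBD2 and the transcription factor MYC.

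Aldoa and Slc16a3 rose in the knockouts, by 2.09-fold and 2.46-fold, and the other 8 genes did not pass the test. Pfkl had a larger difference, 2.85-fold, and Pkm a smaller one, 1.77-fold, and both had a larger spread between the wild-type libraries. Slc2a1, Hk1 and Ldha lay 1.22-fold to 1.27-fold above wild type, and Slc2a3, Hk2 and Pgk1 lay below it, all without passing. Together the 10 genes took 1.12% of the counts of KO1 and 1.10% of those of KO2, against 0.745% in WT1 and 0.650% in WT2. These are shares of unscaled totals. With the TMM scaling used for CPM, the sums were 10582.5 and 10471.6 CPM in KO1 and KO2, and 7491.1 and 7153.5 CPM in WT1 and WT2. Pkm, which was not called, held 3510 and 3491 CPM of the knockout sums and 2332 and 1631 CPM of the wild-type sums. Counts were tested with edgeR's quasi-likelihood test and Benjamini-Hochberg adjustment over all 17022 genes, with a threshold of 0.05. Of all genes tested 5.45% were called, 3.51% as higher and 1.94% as lower in the knockouts, and among the 10 genes 2 were called as higher and 0 as lower. At an unadjusted p under 0.05 there were 4 higher and 0 lower, beside 37.1% of all genes tested (19.4% higher and 17.7% lower). DESeq2 called 4 higher and 0 lower, beside 22.5% of all genes (12.3% higher and 10.2% lower). The median log2 fold change of the 10 genes was 0.34, with 7 above 0. For all 17022 tested genes it was -0.02, with 8381 above 0. The edgeR adjusted p of Aldoa and Slc16a3, 0.0482, was the smallest reached, a value shared with many other genes. By unadjusted p Aldoa ranked 222 and Slc16a3 212 among the 17022 genes. Both calls ended with upper-quartile scaling (edgeR adjusted p = 0.0520 for each) and with library totals alone (0.0542 for each). Without KO1 the adjusted p was 0.407 for Aldoa and 0.3327 for Slc16a3, without KO2 0.320 and 0.228, and after removal of trends on GC content and exon length 0.273 and 0.102. Fewer cells of a kind and less RNA per cell cannot be told apart in such bulk samples, and the p-values measure the spread between libraries of different deletions (KO1 and KO2) and different passages (WT1 and WT2), with no replicate of any single deletion or passage.

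**Figure D1:**
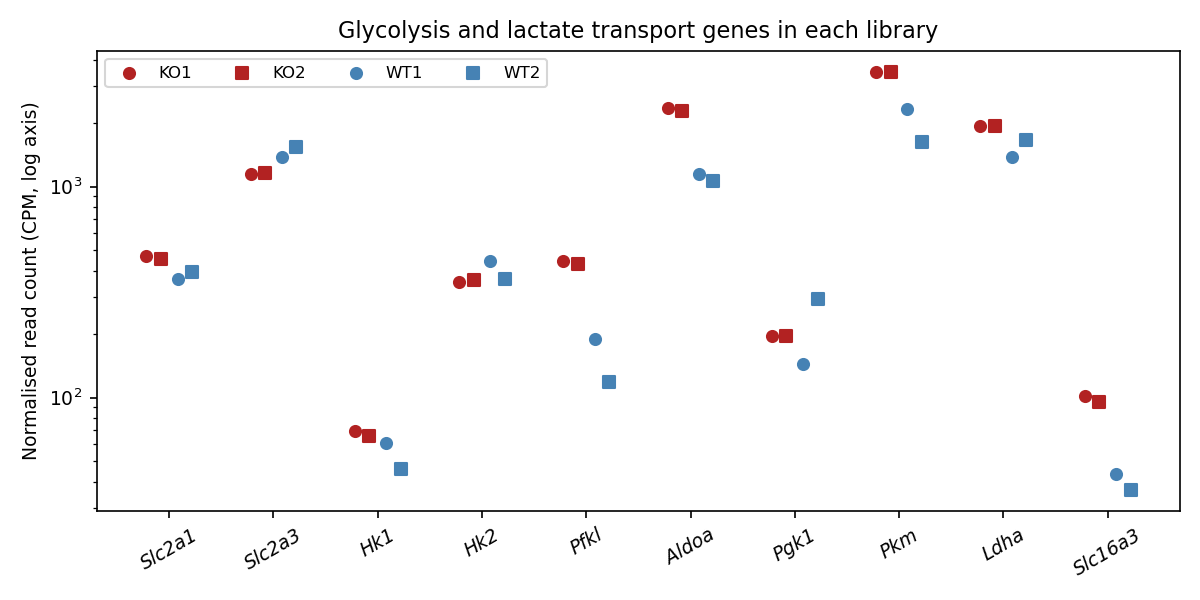
Normalised read counts (CPM, log axis) of the 10 genes in KO1 and KO2 (red) and WT1 and WT2 (blue), each point being 1 library. The knockout points lie close together in every gene, and the wild-type points spread most in Pgk1 (144 and 295 CPM) and Pfkl (189 and 118 CPM).

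The groups did not overlap for 9 of the 10 genes, with the knockouts above the wild types in 7 and below in 2. Among all genes tested 71.2% did not overlap, with the knockouts above in 36.5% and below in 34.8%, so non-overlap by itself was the usual state of a gene in these libraries. The knockout libraries resembled each other far more closely than the wild-type libraries did. Over the 10 genes the log2 ratio of KO2 to KO1 stayed within 0.087 of 0, whereas that of WT2 to WT1 reached 1.03 in size, for Pgk1. A chi-square of the counts, divided by its degrees of freedom, was 2.26 over 14837 genes for the knockout pair and 167 over 14688 genes for the wild-type pair, where sampling noise alone gives 1. For 6 of the 10 genes the knockout pair differed beyond the 95% value of 3.84, and for 9 the wild-type pair did. This is a comparison with counting error only, and the share of all genes past that value was not computed. KO1 and KO2 were counted as separate samples because their labels give different deletions.

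**Figure D2:**
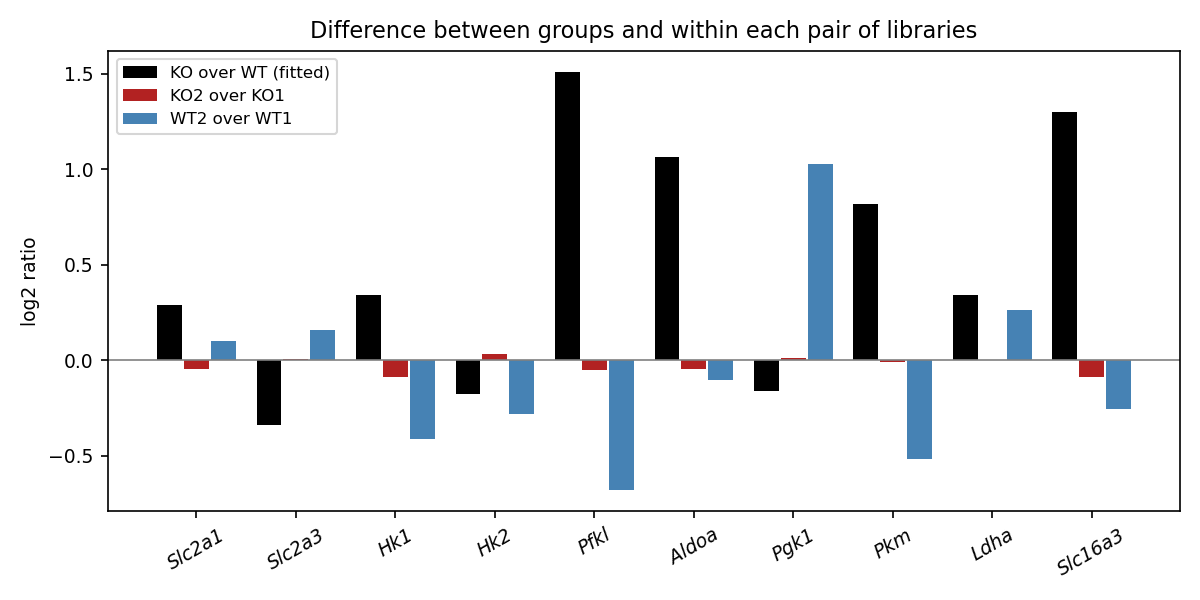
Log2 ratios (vertical axis) of the 10 genes for knockout over wild type as fitted by edgeR (black), KO2 over KO1 (red) and WT2 over WT1 (blue). The red bars stay within 0.087 of 0, and in 3 genes the blue bar is longer than the black bar.

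Depth was 29264632 to 42322129 counts per library. The smallest count among the 10 genes was 1315, of Slc16a3 in WT2. Drosha itself stood at 158 and 158 CPM in KO1 and KO2, against 364 and 357 CPM in WT1 and WT2, a log2 fold change of -1.19 ± 0.11 (SE, edgeR adjusted p = 0.0482). The gene-level count does not resolve the deleted stretch. All 8 markers of embryonic stem cells had reads in every library and summed to 4437 to 4482 CPM in the knockouts and 4127 to 4754 CPM in the wild types. In edgeR 1, Utf1, rose and 0 fell, with 1 higher and 1 lower at an unadjusted p under 0.05, and DESeq2 called 1 higher and 0 lower. The median log2 fold change of these 8 was -0.097, with 3 above 0. Of 9 tested markers of primitive endoderm (10 listed), Lama1, Cubn and Col4a1 fell in edgeR, 8 were lower and 0 higher at an unadjusted p under 0.05, and DESeq2 called 8 lower and 0 higher. Their median log2 fold change was -2.64 (-2.76 with trends removed), and the summed level of the list was 69.4 to 70.5 CPM in the knockouts and 247 to 430 CPM in the wild types. The 12 markers of fibroblasts and feeder cells summed to 175 to 187 CPM in the knockouts and 116 to 134 CPM in the wild types. Vim, named after its values were seen, made up most of each sum (125 and 119 CPM in KO1 and KO2, 87.1 and 70.8 CPM in WT1 and WT2). Of the 9 tested, 0 were called by edgeR (4 higher and 1 lower at an unadjusted p under 0.05, and 2 higher and 1 lower in DESeq2). The lower marker, Pdgfra, also named after its values were seen, is in the primitive endoderm list too. Dcn, the feeder marker with the smallest p, was at 1.65 and 0.54 CPM in KO1 and KO2 and had no count in either wild-type library, nor had Lum and Postn, named after their values were seen. Of the 8 trophoblast markers, 5 were tested, of which Tfap2c rose and 0 fell in edgeR. At an unadjusted p under 0.05, 1 was higher and 0 lower, and likewise in DESeq2. The median log2 fold change of the 5 was 0.75, with 4 above 0, and it was 0.029 with trends removed. The 8 markers summed to 121 to 123 CPM in the knockouts and 61.3 to 71.9 CPM in the wild types. Tfap2c made up most of each sum (84.7 and 83.4 CPM in KO1 and KO2, 37.8 and 41.4 CPM in WT1 and WT2). The part of such cells in the results below was not tested.

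Slc2a1 encodes GLUT1, the basal glucose transporter of most tissues (ENSMUSG00000028645, chromosome 4, 119108711 to 119137983, build mm10, as for all coordinates below). KO1 had 472 and KO2 457 CPM, whereas WT1 had 366 and WT2 392 CPM. Both knockout libraries lay above both wild-type libraries, but the difference did not pass (log2 fold change 0.29 ± 0.12, SE, edgeR adjusted p = 0.155). After removal of each library's trends on GC content and exon length (below, trends removed) it turned to -0.13 ± 0.13.

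Slc2a3 encodes GLUT3, a transporter with high affinity for glucose (ENSMUSG00000003153, chromosome 6, 122727809 to 122801640). Counts reached 1149 CPM in KO1 and 1157 in KO2, compared with 1379 CPM in WT1 and 1540 in WT2. Here the knockouts were the lower group, without overlap and without passing (log2 fold change -0.34 ± 0.13, edgeR adjusted p = 0.137). Per kb of annotated exon, Slc2a3 was nevertheless the more abundant of these transporters in every library, at 159 and 160 CPM per kb in KO1 and KO2 and 190 and 213 CPM per kb in WT1 and WT2. Slc2a1 had 135, 130, 104 and 112 CPM per kb in KO1, KO2, WT1 and WT2.

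Hexokinase genes did not pass in either direction. Hk1 encodes the housekeeping hexokinase (ENSMUSG00000037012, chromosome 10, 62268855 to 62379908). KO1 had 69.7 and KO2 65.7 CPM, whereas WT1 had 60.8 and WT2 45.7 CPM (log2 fold change 0.35 ± 0.18, edgeR adjusted p = 0.241). With trends removed Hk1 was at -0.31 ± 0.096 (edgeR unadjusted p = 0.0301, adjusted p = 0.160). Hk2 encodes the inducible hexokinase of growing cells (ENSMUSG00000000628, chromosome 6, 82725025 to 82774454). Counts reached 354 CPM in KO1 and 363 in KO2, compared with 445 CPM in WT1 and 366 in WT2. WT2 lay beside the knockouts and WT1 above them (log2 fold change -0.18 ± 0.15, edgeR adjusted p = 0.414). With trends removed Hk2 was at -0.32 ± 0.10 (edgeR unadjusted p = 0.0322, adjusted p = 0.163). Hk2 was the main hexokinase transcript per kb of exon in all 4 libraries, at 59.3 and 60.8 CPM per kb in KO1 and KO2 and 74.5 and 61.3 CPM per kb in WT1 and WT2, while Hk1 ranged from 5.36 CPM per kb in WT2 to 8.17 CPM per kb in KO1.

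Pfkl encodes the liver-type subunit of phosphofructokinase, the enzyme of the committing step (ENSMUSG00000020277, chromosome 10, 77986947 to 78010083). KO1 had 446 and KO2 431 CPM, whereas WT1 had 189 and WT2 118 CPM. This was the largest difference among the 10 genes, and the wild types also differed, by -0.68 on the log2 scale for WT2 over WT1. The log2 fold change of 1.51 ± 0.26 missed the threshold (edgeR adjusted p = 0.0523) and passed in DESeq2 (adjusted p = 3.53e-05). With trends removed Pfkl kept the largest difference of the 10 genes, at 0.76 ± 0.11 (edgeR unadjusted p = 0.00204, adjusted p = 0.0926).

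Aldoa encodes aldolase A, which splits fructose bisphosphate into triose phosphates (ENSMUSG00000030695, chromosome 7, 126795234 to 126800751). Counts reached 2351 CPM in KO1 and 2281 in KO2, compared with 1146 CPM in WT1 and 1067 in WT2. The knockout libraries averaged 2316 ± 50.1 CPM and the wild types 1107 ± 56.0 CPM (SD, n = 2 each), with no overlap. The log2 fold change was 1.07 ± 0.12 (SE, edgeR adjusted p = 0.0482), and the wild-type libraries differed by only -0.10 on that scale. With trends removed the difference was 0.26 ± 0.12 and did not pass (edgeR adjusted p = 0.273).

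Pgk1 encodes the first ATP-yielding kinase of the pathway (ENSMUSG00000062070, chromosome X, 106187100 to 106203699). KO1 had 196 and KO2 197 CPM, whereas WT1 had 144 and WT2 295 CPM. The knockouts fell between the wild-type libraries, and no difference between the groups was detectable (log2 fold change -0.16 ± 0.37, edgeR adjusted p = 0.768). Against WT1 alone the knockouts were higher, at 0.45, and against WT2 alone lower, at -0.59. Pgk1 is also the gene, of the 10, whose count is least certain, since 67.96% of the 50-base stretches of its coding transcripts occur in other annotated genes, nearly all of them in the processed pseudogene Pgk1-rs7. That pseudogene stood at 17.6 and 19.3 CPM in KO1 and KO2 and 8.97 and 6.0 CPM in WT1 and WT2, without passing (log2 fold change 1.30 ± 0.26, edgeR adjusted p = 0.0575). Of the 4 tested copies of Ldha, Aldoa and Pgk1 (5 listed), 0 passed in edgeR, 3 were higher at an unadjusted p under 0.05 and DESeq2 called 1.

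Pkm encodes pyruvate kinase M, which makes pyruvate and whose splice forms M1 and M2 share this gene (ENSMUSG00000032294, chromosome 9, 59656368 to 59679375). Counts reached 3510 CPM in KO1 and 3491 in KO2, compared with 2332 CPM in WT1 and 1631 in WT2. The groups did not overlap, yet the difference of 0.82 ± 0.21 on the log2 scale did not pass in edgeR (adjusted p = 0.0786) and did in DESeq2 (adjusted p = 0.0219). With trends removed it was -0.045 ± 0.096. Gene-level counts do not separate the splice forms. Among 4 splicing factor genes known to set the choice between them, 0 passed in edgeR, 0 had an unadjusted p under 0.05 and DESeq2 called 0. Ptbp1, a repressor of the M1 exon and the factor with the smallest p, stood at 650 and 626 CPM in KO1 and KO2 and 541 and 460 CPM in WT1 and WT2 (log2 fold change 0.35 ± 0.14, edgeR adjusted p = 0.152).

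Ldha encodes the lactate dehydrogenase subunit that favours lactate (ENSMUSG00000063229, chromosome 7, 46841475 to 46855627). KO1 had 1934 and KO2 1935 CPM, whereas WT1 had 1385 and WT2 1662 CPM. The knockouts lay above both wild types without passing (log2 fold change 0.34 ± 0.15, edgeR adjusted p = 0.168, and 0.22 ± 0.13 with trends removed).

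Slc16a3 encodes MCT4, a monocarboxylate carrier known for lactate export (ENSMUSG00000025161, chromosome 11, 120948480 to 120960868). Counts reached 102 CPM in KO1 and 95.7 in KO2, compared with 43.6 CPM in WT1 and 36.5 in WT2. The knockout libraries averaged 98.6 ± 4.08 CPM and the wild types 40.1 ± 5.01 CPM (SD, n = 2 each), with no overlap. Its log2 fold change of 1.30 ± 0.15 passed (SE, edgeR adjusted p = 0.0482), and with trends removed it was 0.56 ± 0.10 (unadjusted p = 0.00538, adjusted p = 0.102). The sequence of Slc16a3 shared no 50-base stretch with another annotated gene.

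**Figure D3:**
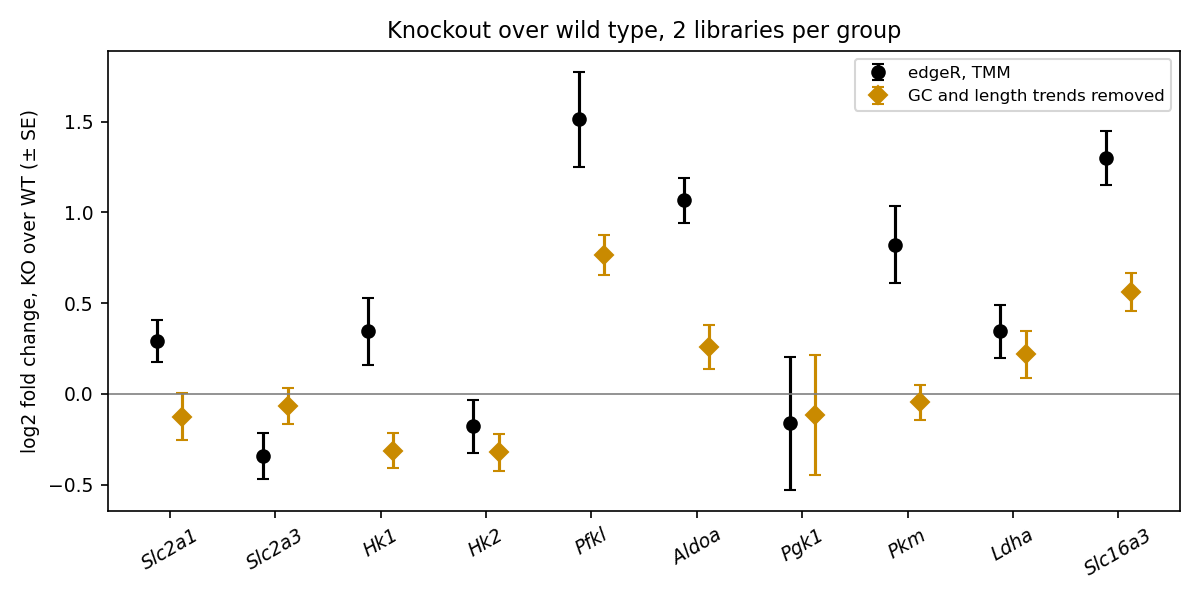
Log2 fold change of knockout over wild type with its SE for the 10 genes in pathway order, from edgeR with TMM scaling (black circles) and with trends on GC and exon length removed (yellow diamonds). Pfkl, Aldoa and Slc16a3 have the highest circles, at 1.51, 1.07 and 1.30, and with trends removed 6 of the 10 genes lie below 0.

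Between genes, levels per kb of exon put Aldoa, Pkm and Ldha far above the rest in every library. In the knockouts the order was Aldoa (808 and 783 CPM per kb in KO1 and KO2), Pkm (702 and 698) and Ldha (584 and 585), and these did not overlap. In the wild types Ldha (418 and 502 CPM per kb in WT1 and WT2) lay above Aldoa (394 and 367) in both libraries, the reverse of the order in the knockouts, and Pkm (466 and 326) overlapped both. Slc2a3 and Slc2a1 followed in every library except WT2, where Pgk1 (131 CPM per kb) stood above Slc2a1. Slc16a3 (19.1 and 18.0 CPM per kb in KO1 and KO2, 8.20 and 6.87 in WT1 and WT2) and Hk1 were the lowest throughout. How reads from sequence shared with other genes were counted is not given, and such sequence made up 23.7% of the stretches of Pkm, 10.4% of those of Ldha, 8.46% of those of Aldoa and at most 1.64% in the other genes except Pgk1.

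Ratios of paralogues inside a library do not depend on how libraries are scaled. They were taken as log2 ratios of counts with 1 added, and with 2 libraries a group an exact permutation test cannot go below 0.33, so none was run. The ratio of Slc2a1 to Slc2a3 was higher in the knockouts, at -1.28 in KO1 and -1.34 in KO2, against -1.91 in WT1 and -1.97 in WT2. The gap between groups, 0.63, was above the spread within them (SD 0.040 in the knockouts and 0.042 in the wild types). With trends removed, the log2 fold changes of these transporters were close, at -0.13 for Slc2a1 and -0.065 for Slc2a3. The ratio of Hk2 to Hk1 was lower in the knockouts, at 2.34 in KO1 and 2.47 in KO2, against 2.87 in WT1 and 3.0 in WT2. Hk2 made up 87.9% and 88.8% of the pair per kb in KO1 and KO2 and 91.3% and 92.0% in WT1 and WT2. Trend-removed log2 fold changes were again close, at -0.32 for Hk2 and -0.31 for Hk1.

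Among phosphofructokinase subunits, the ratio of Pfkl to the platelet-type Pfkp was -0.87 in KO1 and -0.92 in KO2, against -1.69 in WT1 and -2.24 in WT2. Pfkl over the muscle-type Pfkm was 1.79 and 1.75 in KO1 and KO2 and 1.49 and 1.38 in WT1 and WT2. The counts of Pfkm (129 and 128 CPM in KO1 and KO2, 67.4 and 45.5 CPM in WT1 and WT2) and Pfkp (814 and 817 CPM, against 610 and 561 CPM) were above wild type in the knockouts as well, without passing in edgeR (adjusted p = 0.0556 and 0.0752). With trends removed, these subunit genes had similar log2 fold changes, 0.76 for Pfkl, 0.71 for Pfkm and 0.76 for Pfkp. Aldoa over the brain-type Aldoc overlapped between groups, at 6.01 and 6.01 in the knockouts and 6.09 and 5.31 in WT1 and WT2.

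In the pairs of lactate handling the wild types differed widely from each other. Slc16a3 over Slc16a1, which encodes the carrier MCT1, was -0.26 in KO1 and -0.39 in KO2, against -1.84 in WT1 and -3.15 in WT2. Slc16a1 itself stood at 121 and 125 CPM in KO1 and KO2 and 156 and 325 CPM in WT1 and WT2 (log2 fold change -0.96 ± 0.38, edgeR adjusted p = 0.150). With trends removed the log2 fold changes of this pair stayed apart, at 0.56 ± 0.10 for Slc16a3 and -0.46 ± 0.29 for Slc16a1, a difference that was not tested. Ldha over Ldhb, the subunit that favours pyruvate, was 2.09 and 2.10 in KO1 and KO2 and 3.61 and 2.33 in WT1 and WT2. The gap to WT2 was small, and Ldhb stood at 454 and 453 CPM in KO1 and KO2, 113 CPM in WT1 and 330 CPM in WT2 (edgeR adjusted p = 0.230). Of the 50-base stretches of Ldhb, 21.0% occur in the annotated gene Gm5514.

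**Figure D4:**
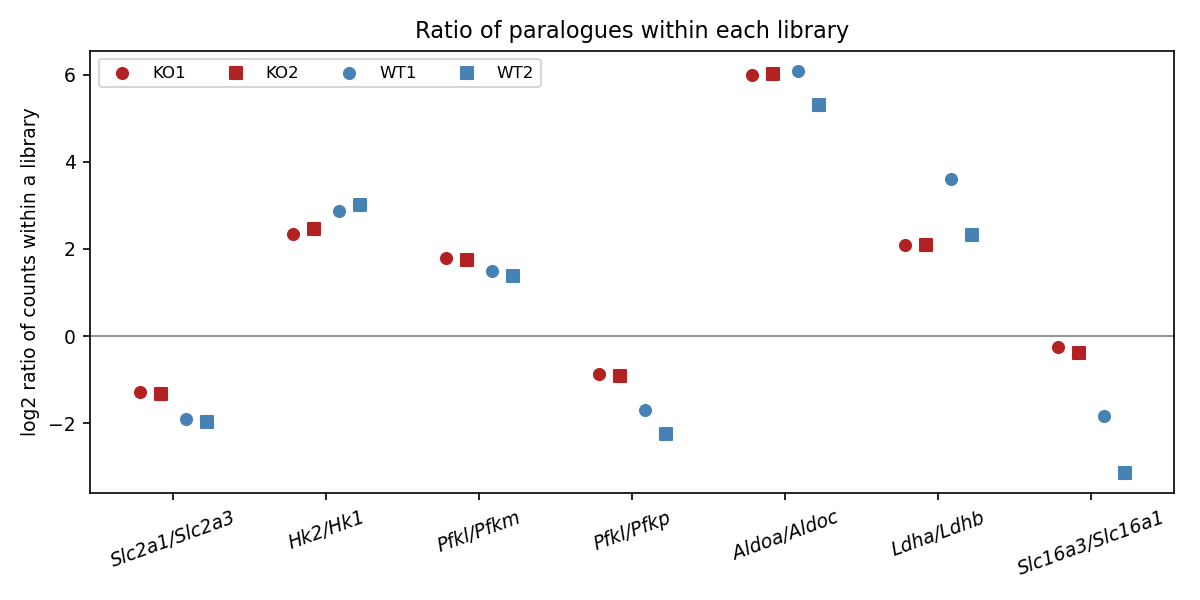
Log2 ratio of the counts of 2 paralogues within each library for 7 pairs, with KO1 and KO2 in red and WT1 and WT2 in blue. Knockout and wild-type points are apart in every pair except Aldoa/Aldoc, and the wild types lie farthest apart in Slc16a3/Slc16a1 (-1.84 and -3.15) and Ldha/Ldhb (3.61 and 2.33). The share of all gene pairs that lie apart was not computed, and among single genes tested 71.2% did not overlap.

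Fold changes of the 10 genes went with the GC content of their transcripts. The 6 genes at 54% GC or more (Slc2a1, Hk1, Slc16a3, Aldoa, Pfkl and Pkm) had positive fold changes, and Slc2a3, at 47.4%, had the lowest. Pearson's r over the 10 genes was 0.85 and Spearman's rho 0.85, a description of genes that share the same libraries. The whole transcriptome showed the same gradient, with a median log2 fold change of -0.48 over 6704 tested genes under 48% GC, 0.030 over 5509 genes from 48% to 54% and 0.77 over 4690 genes of 54% or more. A gradient on GC also separated the wild-type libraries, with medians of 0.23, -0.024 and -0.40 for WT2 over WT1 in those classes. GC-rich genes were thus higher in WT1 than in WT2, as they were in the knockouts over the wild types. The knockout pair had medians of 0.031, -0.0031 and -0.047 for KO2 over KO1. Removing each library's trend on GC and exon length left 4 of the 10 genes above 0 and a median of -0.055. Over all 17022 tested genes it left 7993 above 0 and a median of -0.035. In that fit 0 genes of the transcriptome passed in edgeR, and 4300 of 17022 had an unadjusted p under 0.05. Among these were 4 of the 10 genes, Pfkl and Slc16a3 as higher and Hk1 and Hk2 as lower. In these 4 libraries the GC gradient and genotype cannot be told apart.

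**Figure D5:**
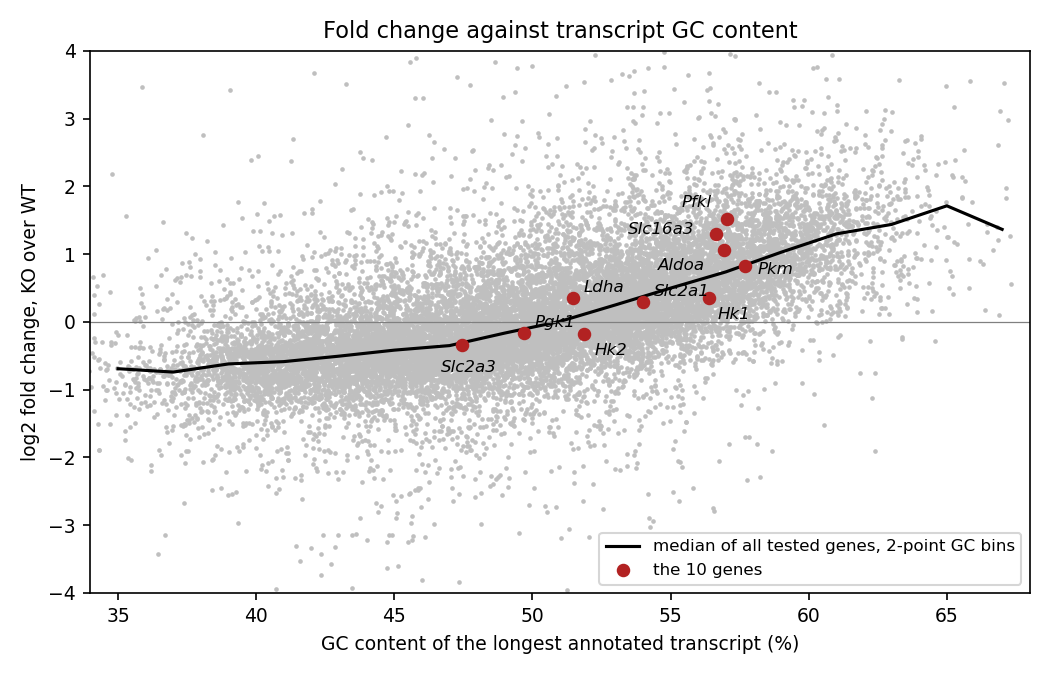
Log2 fold change of knockout over wild type against the GC content of the longest annotated transcript, with all tested genes in grey, their median in GC bins as a black line and the 10 genes in red. Pfkl, Slc16a3 and Aldoa lie above the line, Pkm lies near it, and Hk1 and Hk2 lie below it.

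The median log2 fold change of all tested genes on the chromosome of each gene was 0.30 for chromosome 7 (Aldoa and Ldha), 0.18 for chromosome 11 (Slc16a3) and 0.07 for chromosome 4 (Slc2a1). It was -0.36 for chromosome X (Pgk1, itself at -0.16), -0.11 for chromosome 9 (Pkm), -0.03 for chromosome 6 (Slc2a3 and Hk2) and -0.02 for chromosome 10 (Hk1 and Pfkl).

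Fitted alone against both wild types, each knockout gave similar values, and these comparisons share the wild-type libraries. Aldoa had a log2 fold change of 1.10 in KO1 and 1.05 in KO2, Slc16a3 of 1.35 and 1.27, and Pfkl of 1.55 and 1.5. A lone library is taken to vary as much as the wild types in these fits, so only the sizes of the differences are given here. Slc2a3 was at -0.34 in KO1 and -0.33 in KO2, and Hk2 at -0.19 and -0.15.

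Promoter windows of 300 bases, most of them upstream of the transcription start, were available from RefSeq (GRCm38.p6) for 9 of the 10 genes, as 14 windows, that is for all but Slc2a3. The core of the hypoxia response element, at which HIF factors bind, was searched as ACGTG or GCGTG on both strands, and a CACGTG, the E-box bound by MYC, holds an ACGTG on each strand. Of the 14 windows, 11 (78.6%) held a core, beside 43.8% of all 32851 windows, and all 9 genes had a core in at least 1 window, beside 12628 of all 27025 genes. Windows 2 and 3 of Aldoa overlap and hold the same core. The windows of these genes are also richer in GC, with a median of 65.2% beside 52.7% over all windows. ACGTG alone was in 9 of the 14 windows (64.3%, beside 19.6% of all), and CACGTG was in 1 (7.14%, beside 7.15%), that of Ldha. Shown 5′ to 3′ on the strand of the gene, with these cores in capitals, are the windows of the called genes Slc16a3 (chr11:120948817-120949116, plus strand) and Aldoa (chr7:126799205-126799504, minus strand, of 3 windows), and of Ldha (chr7:46845554-46845853, plus strand, of 2 windows) and Pgk1 (chrX:106186850-106187149, plus strand), which were not called. They hold 2 matches in Slc16a3, 1 in Aldoa, 7 in Ldha (overlaps counted) and 2 in Pgk1.
Slc16a3: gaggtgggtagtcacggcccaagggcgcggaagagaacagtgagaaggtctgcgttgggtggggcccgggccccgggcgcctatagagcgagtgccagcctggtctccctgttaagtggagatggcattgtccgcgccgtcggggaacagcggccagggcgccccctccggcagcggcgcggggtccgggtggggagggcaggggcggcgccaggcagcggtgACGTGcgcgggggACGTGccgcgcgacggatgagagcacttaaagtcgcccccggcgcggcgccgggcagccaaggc
Aldoa: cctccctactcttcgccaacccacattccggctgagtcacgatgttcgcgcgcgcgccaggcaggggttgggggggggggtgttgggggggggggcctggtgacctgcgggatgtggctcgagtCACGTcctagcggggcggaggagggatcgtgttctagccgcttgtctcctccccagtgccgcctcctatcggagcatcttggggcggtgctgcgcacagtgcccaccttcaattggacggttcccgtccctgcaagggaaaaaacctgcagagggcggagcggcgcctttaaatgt
Ldha: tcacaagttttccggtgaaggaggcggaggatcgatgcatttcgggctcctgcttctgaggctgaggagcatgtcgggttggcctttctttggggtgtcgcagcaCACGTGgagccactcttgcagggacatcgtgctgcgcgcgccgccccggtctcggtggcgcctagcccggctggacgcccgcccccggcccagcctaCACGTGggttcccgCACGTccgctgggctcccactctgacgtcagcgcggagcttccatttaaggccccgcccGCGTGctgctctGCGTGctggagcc
Pgk1: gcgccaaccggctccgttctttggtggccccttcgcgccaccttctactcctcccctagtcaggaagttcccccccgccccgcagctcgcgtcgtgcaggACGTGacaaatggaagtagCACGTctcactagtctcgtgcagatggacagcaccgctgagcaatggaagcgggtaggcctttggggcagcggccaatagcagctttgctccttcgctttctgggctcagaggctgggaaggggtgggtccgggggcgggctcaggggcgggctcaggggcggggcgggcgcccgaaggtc

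Since all 9 genes with a window held a core, its presence could not set called genes apart from the others. A link between cores and fold changes was not tested. The other genes of the pathway were described list by list. Of 16 tested genes of other glycolytic steps and isozymes (19 listed), 0 passed in edgeR, although 7 had an unadjusted p under 0.05, all of them higher, and DESeq2 called 4 higher and 0 lower. Their median log2 fold change was 0.70 and 0.38 with trends removed, with 13 of 16 above 0. Over all genes tested, 19.4% were higher at an unadjusted p under 0.05 in edgeR and 12.3% in DESeq2. Of these 17022 genes 8381 lay above 0, with a median of -0.02, or -0.035 with trends removed. The muscle phosphoglycerate mutase gene Pgam2, with the smallest p of the list, stood at 4.60 and 5.09 CPM in KO1 and KO2 and 1.68 and 1.83 CPM in WT1 and WT2 (1.46 ± 0.24, edgeR adjusted p = 0.0502). Named after their values were seen, the triose phosphate isomerase gene Tpi1 stood at 664 and 656 CPM in KO1 and KO2 and 428 and 392 CPM in WT1 and WT2 (adjusted p = 0.0527), and the enolase gene Eno1 stood at 700 and 655 CPM in KO1 and KO2 and 420 and 260 CPM in WT1 and WT2 (edgeR adjusted p = 0.0825). With trends removed the log2 fold change was 0.34 for Tpi1 and 0.18 for Eno1. Other annotated genes hold 49.5% of the 50-base stretches of Eno1, nearly all of them Eno1b, and 6.83% of those of Tpi1. Gapdh, the usual reference gene and also named after its values were seen, stood at only 49.5 and 49.1 CPM in KO1 and KO2 and 43.8 and 55.4 CPM in WT1 and WT2, and 58.4% of its 50-base stretches occur in other annotated genes, 222 in number.

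Among 10 tested glucose and monocarboxylate carriers outside the 10 genes, 0 passed in edgeR, 5 had an unadjusted p under 0.05, all higher, and DESeq2 called 1 higher and 1 lower. Slc2a8, an intracellular glucose transporter gene, had the smallest p, with 24.7 and 22.3 CPM in KO1 and KO2 and 9.44 and 5.64 CPM in WT1 and WT2 (1.64 ± 0.30, edgeR adjusted p = 0.0546, and 0.39 with trends removed). Of 16 genes for the fate of pyruvate and the control of flux, 3 had a fold change above 0. Their median log2 fold change was -0.29 (-0.087 with trends removed), and 0 passed in edgeR, with 1 higher and 4 lower at an unadjusted p under 0.05 and 1 higher and 2 lower in DESeq2. Pdha1, the X-linked E1 subunit of pyruvate dehydrogenase, stood at 289 and 299 CPM in KO1 and KO2 and 433 and 451 CPM in WT1 and WT2 (-0.59 ± 0.11, edgeR adjusted p = 0.0564).

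Branches around glycolysis differed, with a median log2 fold change of 0.56 for the pentose phosphate pathway, 1.09 for gluconeogenesis and -0.15 for the serine branch. With trends removed these medians were 0.41, 0.13 and -0.20. In the pentose phosphate pathway 1 of 8 genes rose and 0 fell in edgeR, with 4 higher and 1 lower at an unadjusted p under 0.05 and likewise in DESeq2. That gene, Tkt, encodes transketolase, which passes sugars back to glycolysis, and it stood at 571 and 561 CPM in KO1 and KO2 and 292 and 230 CPM in WT1 and WT2 (1.12 ± 0.16, adjusted p = 0.0482). Tkt was at 0.75 with trends removed (edgeR unadjusted p = 0.000868, adjusted p = 0.0920). Of 5 tested genes of gluconeogenesis (7 listed), 1 rose and 0 fell in edgeR, with 2 higher and 0 lower at an unadjusted p under 0.05 and likewise in DESeq2. G6pc3, a broadly expressed glucose-6-phosphatase gene, was the one that rose (15.3 and 15.1 CPM in KO1 and KO2, 7.44 and 6.86 CPM in WT1 and WT2, edgeR adjusted p = 0.0497), and it was at 0.13 with trends removed. In the serine branch 0 of 5 passed in edgeR (2 higher and 1 lower at an unadjusted p under 0.05, and 2 higher and 0 lower in DESeq2). Phgdh, its entry enzyme, had the smallest p of the branch (0.66 ± 0.11, edgeR adjusted p = 0.0511). With trends removed Phgdh turned to -0.20 ± 0.16.

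Regulators of the pathway did not move one way, with 1 of 18 higher, 0 lower and a median of -0.074. At an unadjusted p under 0.05 there were 2 higher and 4 lower, and DESeq2 called 2 higher and 3 lower. Mycn, a MYC family transcription factor gene, rose, at 155 and 147 CPM in KO1 and KO2, and 76.3 and 60.3 CPM in WT1 and WT2 (1.14 ± 0.16, edgeR adjusted p = 0.0482). Myc, Mbd2 and Hif1a were named after their values were seen. Myc overlapped between groups, at 47.8 and 49.1 CPM in KO1 and KO2 and 55.1 and 40.3 CPM in WT1 and WT2. Mbd2 stood at 20.7 and 21.7 CPM in KO1 and KO2 and 24.3 and 38.3 CPM in WT1 and WT2 (edgeR adjusted p = 0.196), and Hif1a, the oxygen-sensing factor, stood at 147 and 147 CPM in KO1 and KO2 and 214 and 272 CPM in WT1 and WT2 (adjusted p = 0.0661). With trends removed the log2 fold change was 0.64 ± 0.097 for Mycn and -0.31 ± 0.15 for Myc. It was -1.35 ± 0.36 for Mbd2 (edgeR unadjusted p = 0.0200, adjusted p = 0.138) and -0.18 ± 0.097 for Hif1a. Hypoxia targets outside glycolysis had a median of -0.065, with 0 of 18 higher and 1 lower in edgeR, 1 higher and 4 lower at an unadjusted p under 0.05 and 1 higher and 2 lower in DESeq2. Plod2, a collagen lysyl hydroxylase gene, was the gene that fell, with 70.7 and 70.4 CPM in KO1 and KO2 and 118 and 121 CPM in WT1 and WT2 (-0.76 ± 0.11, edgeR adjusted p = 0.0482, and -0.30 with trends removed).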

How the data were processed

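For each of 4 poly(A) libraries the authors deposited unnormalised counts per Ensembl gene. Per the submitters' processing notes, the tools were STAR 2.4.2a and featureCounts 1.4.5-p1, with build mm10. The labels describe a reverse-stranded TruSeq protocol. The annotation release and the treatment of reads with several matches are not given in the sources used here. Titles and genotype labels gave the groups, and 42462 identifiers (97.3%) matched a symbol. Coordinates, exon length, transcript GC and transcripts came from GENCODE M21 of the same build.

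The main test was that of edgeR 4.0.16 (R 4.3.3) (TMM, default filter with minimum count 10 and minimum total 15, quasi-likelihood fit of group alone, Benjamini-Hochberg over 17022 genes, threshold 0.05). SE is that of the log2 fold change, and CPM values are TMM-scaled. To remove trends, lowess curves of log2 CPM on GC content and exon length were fitted in each library and entered as offsets. DESeq2 1.42.0, other scalings, no filter, the replicate block and each library left out were alternatives. The scripts were tested on simulated data.

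The 10 genes and the lists were chosen with earlier results of these data known. The text names all 10 genes, the paralogues in the ratios, and from each list the called genes, at most 4 in each direction, or else the gene with the smallest p. Gapdh, Tpi1, Eno1, Myc, Mbd2, Hif1a, Lum, Postn, Vim and Pdgfra fall outside this rule and were named after their values were seen. Figures used Python 3.11.15 with matplotlib 3.10.9.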

Additional observations from a re-analysis of the deposited data

How the results depend on the processing

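The number of genes called was 927 in edgeR with TMM, 3747 in DESeq2, 2663 with no filter on low counts and 1929 with the replicate block. It was 0 with upper-quartile scaling, with library totals alone, with the knockout libraries summed as 1 sample, and with trends on GC and length removed without and with the replicate block (6267, 6116, 1888, 4300 and 3227 at an unadjusted p under 0.05). Leaving out 1 library gave 0 to 13658 calls, 12089 or more when a wild-type library was dropped and only the knockout pair gave the spread. Of the 10 genes, 2 were called in edgeR, 4 in DESeq2 and with no filter (Pfkl and Pkm besides), 3 with the replicate block (Pfkl besides), and 0 in the fits with 0 calls, and 0 to 10 with 1 library left out. Their median log2 fold change was 0.49 with library totals alone, -0.055 with trends removed, -0.045 with this and the replicate block, and 0.33 to 0.47 with 1 library left out. Library totals alone moved the median of all tested genes to 0.13.

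With trends removed, Slc2a1 turned to -0.13, Hk1 to -0.31 and Pkm to -0.045, and with the replicate block as well to -0.12, -0.31 and -0.045. Pgk1 was at 0.0045 with library totals alone and ran from -0.59 to 0.45 with 1 library left out. The paralogue ratios kept their direction in every left-out version, except Aldoa over Aldoc, which was -0.081 without WT2 and 0.70 without WT1. Ldha over Ldhb was -0.24 without WT1 and -1.52 without WT2. The shared numbers 1 and 2 are not said to mark pairs, and the deviations of same-numbered libraries correlated at 0.046, so the block is given only here. The cause of these differences was not tested. Depth was not limiting for the 10 genes, whose smallest count was 1315.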
